A study of Mus musculus with 8 samples.

Results

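The NRF2 antioxidant genes were measured by RNA sequencing in tubuloids, cultured structures that form tubules and spheroids in Matrigel out of fragments of postnatal mouse kidney. The group comprised 10 genes chosen by symbol from the 24063 genes of the deposited tables: Nfe2l2, Keap1, Nqo1, Hmox1, Gclc, Gclm, Txnrd1, Srxn1, Gsr and Gpx2. All 10 were found and all 10 passed the filters of the test. The kidneys were labelled as postnatal day 7 to 10, although the study's methods give a younger range, and every culture, controls included, carried the genotype Pkd2fl/fl Pax8rtTA TetOCre mTmG. This genotype combines floxed alleles of Pkd2, which encodes the cation channel polycystin-2, with a doxycycline-dependent Cre recombinase under the control of the Pax8 promoter and a membrane reporter that turns from red to green on recombination. Cultures received doxycycline (DOX, n=4 libraries), which turns on Cre, or the solvent dimethyl sulfoxide (DMSO, n=4 libraries) for 3 days from culture day 3, and RNA was taken on culture day 7. Only cells in which the Pax8 promoter is active can recombine, recombination was incomplete in the study's own images, and the E-cadherin-negative prestructures of the culture did not respond. Because no culture without Cre was given DOX, effects of the drug, of Cre and of Pkd2 loss cannot be told apart. Libraries are named below by group and by the number in their label.

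NRF2, the protein encoded by Nfe2l2, is a transcription factor that KEAP1 holds in the cytoplasm and presents for ubiquitylation and degradation. Oxidants and electrophiles modify cysteines of KEAP1, NRF2 then accumulates in the nucleus, pairs with a small MAF protein and binds antioxidant response elements beside its target genes. Those targets make glutathione, reduce thioredoxin and glutathione with NADPH, detoxify quinones and degrade haem, and in the kidney the pathway is known for limiting oxidative tubular injury.

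The DNA element bound by NRF2 and its partners is shown for the members whose promoter held a match to its core. The promoter sequences were those of RefSeq on GRCm38.p6 and spanned 250 bases before to 50 bases after the transcription start. They were present for 7 of the 10 members, with 9 promoters in all, 3 of them of Txnrd1. Hmox1, Gclc and Gsr were not in the table. Both strands were searched for TGACNNNGC, the core of the antioxidant response element, and for TGAGNNNGC, a variant of the core; the letter patterns differ at the fourth base, so no match can be to both at the same place and strand. A match was found in 4 of the 7 members, and in 4 of their 9 promoters. In each line the matched bases are in capitals and the sequence is read along the strand of the gene.
Nfe2l2, chr2:75704875-75704913, minus strand: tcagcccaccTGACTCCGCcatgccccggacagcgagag
Srxn1, chr2:152105459-152105507, plus strand: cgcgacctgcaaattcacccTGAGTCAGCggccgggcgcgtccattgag
Srxn1, chr2:152105346-152105394, plus strand: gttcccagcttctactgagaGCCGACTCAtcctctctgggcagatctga
Gclm, chr3:122245403-122245451, plus strand: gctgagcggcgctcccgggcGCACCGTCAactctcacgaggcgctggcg
Txnrd1, chr10:82859094-82859142, plus strand: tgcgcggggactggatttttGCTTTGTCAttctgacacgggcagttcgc

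The matches of Nfe2l2 and the first of Srxn1 lay on the strand of the gene, 240 and 45 bases before the start. The second match of Srxn1 lay on the opposite strand 158 bases before the start, that of Gclm 134 bases and that of Txnrd1 92 bases before it. The start is that of the promoter table, which for Gclm (chr3, base 122245557) and Txnrd1 (chr10, base 82859206) lies inside the gene as annotated by its outermost transcript. A further match of Srxn1 to TGACNNNGC lay 29 bases after the start. Such short patterns are common: among 32851 promoters of the same length, 12.4% held TGACNNNGC, 17.6% held TGAGNNNGC and 27.8% held either. The matches are therefore descriptions of the sequence and not evidence of binding.

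Summed counts ranged from 63922677 to 102716313 per library. DMSO 20 and DOX 19 stood apart, with a count for 13243 and 13599 genes, against 17054 to 17903 genes in the other 6 libraries, so values without them are given beside the results that they move most. Pkd2 transcripts, which need not disappear after excision of a floxed exon, averaged 6130 ± 1114 normalised read counts (counts divided by a size factor for library depth) with DMSO and 4946 ± 772 with DOX (SD, 4 libraries each; log2 fold change −0.31, s.e. 0.215, adjusted p=0.999 by DESeq2). The epithelial content of the cultures was checked by 7 epithelial markers (Cdh1, Epcam, Krt8, Krt18, Krt19, Pax8 and Cdh16). All were above 1 TPM (transcript abundance scaled for length and to a fixed sum per library) in every library. Their summed level was 660 to 2867 TPM in DMSO and 843 to 1816 TPM in DOX libraries. All 3 markers of mature proximal tubule (Lrp2, Slc34a1 and Cubn) were below 1 TPM in every library. Stromal markers (Col1a1, Col1a2, Col3a1, Pdgfra, Pdgfrb, Dcn and Acta2) summed to 3735 TPM in DMSO 15 and to between 298 and 1019 TPM in the other 7 libraries. Urothelial markers (Upk1a, Upk1b, Upk2, Upk3a, Krt5 and Trp63) summed to 0.858 to 11.7 TPM in DMSO and 2.44 to 20.7 TPM in DOX libraries. The highest sum was in DOX 19, where Krt5 had 16.9 TPM. Of the 6 markers, 4 stayed below 5 TPM in every library.

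Whether the antioxidant genes responded to DOX was asked first. No member was called different between DOX and DMSO, where a call needed a 1.5-fold or larger difference and an adjusted p no higher than 0.05. The count was 0 of 10 by DESeq2, and edgeR also called 0 of 10. By either tool, 0 of the 10 had an unadjusted p under 0.05. Over the whole table DESeq2 called 25 of 17011 genes (0.147%), 14 higher (0.0823%) and 11 lower (0.0647%) with DOX, and 4.67% of genes had an unadjusted p under 0.05. The quasi-likelihood test of edgeR called 0 of 15562 genes (0%), with 476 at an unadjusted p under 0.05. The fitted log2 fold change was above 0 for 6 members and below 0 for 4, with a median of 0.04, beside −0.07 over all genes tested. DOX and DMSO libraries overlapped for all 10 members. Over the table the groups did not overlap for 478 of 17633 genes (2.71%), so 0 of 10 does not set the members apart. The p-values weigh the difference between the groups against the spread between these libraries. The study describes 4 cultures per group, and the labels do not tie them to animals. RNA was taken from whole cultures, so fewer cells of a type and less RNA per cell cannot be told apart.

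**Figure D1:**
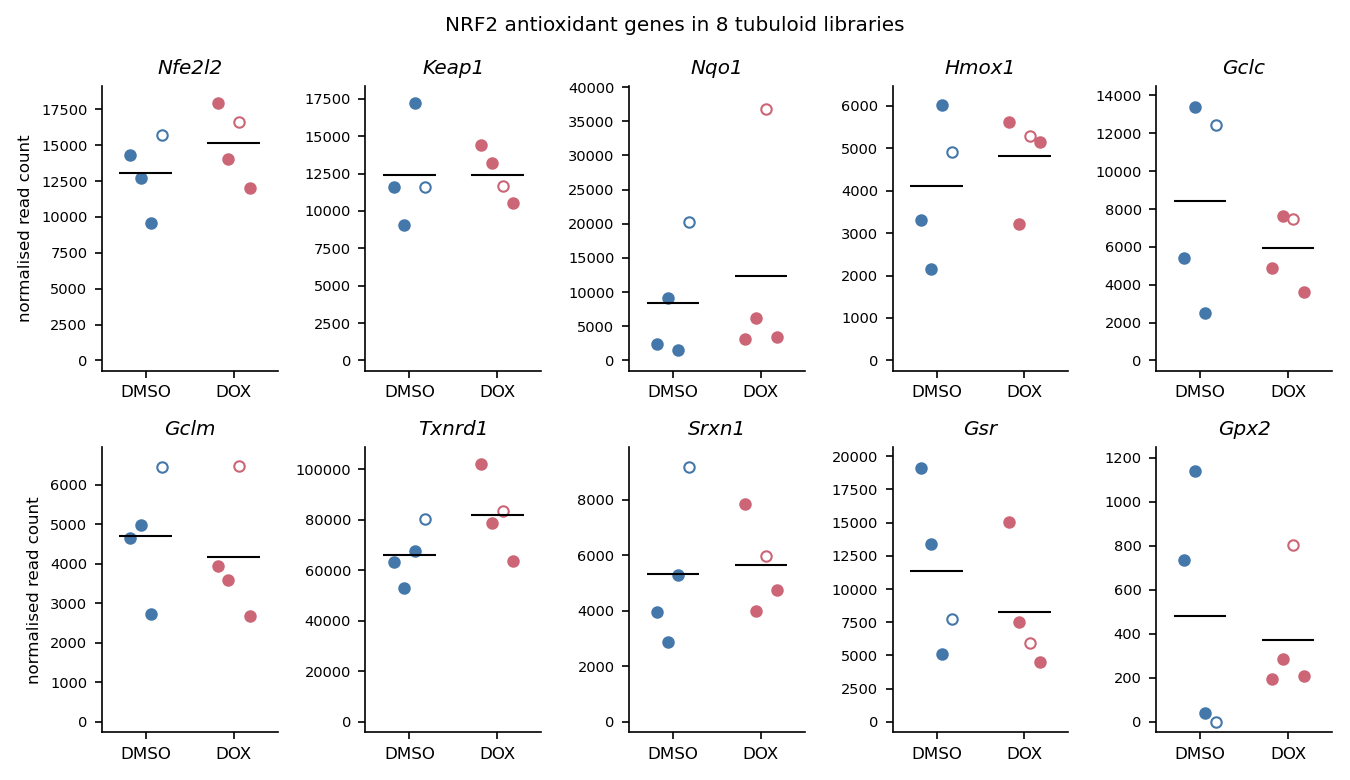
Normalised read count (vertical axis, linear) of each NRF2 antioxidant gene in each of the 4 DMSO (blue) and 4 DOX (red) libraries, 1 point a library, with a bar at the group mean and open points for DMSO 20 and DOX 19, the libraries with the fewest genes detected. DMSO and DOX points overlap in every panel, and Nqo1 spans 1573 to 36858.

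The transcription factor and its repressor were described next. Nfe2l2 (Entrez 18024, chr2:75675513-75704663) encodes NRF2 itself. It had 14333, 12740, 9596 and 15702 normalised read counts in DMSO 3, 5, 15 and 20, and 17978, 14017, 16612 and 12021 in DOX 9, 12, 19 and 21. DMSO 15 was the lowest library and DOX 9 the highest, and the remaining values of both groups were interleaved. The means were 13093 ± 2626 in DMSO and 15157 ± 2659 in DOX (SD, n=4 each), which gave a log2 fold change of 0.21 (s.e. 0.237, 95% interval −0.25 to 0.67, adjusted p=0.999 by DESeq2), and of 0.09 without DMSO 15. Keap1 (Entrez 50868, chr9:21229730-21239332), the adaptor that brings NRF2 to the CUL3 ubiquitin ligase, had 11577, 9082, 17247 and 11614 normalised read counts in the DMSO and 14401, 13187, 11657 and 10502 in the DOX libraries, in the same order. DMSO libraries were both the highest and the lowest, and the DOX values lay between them. The group means were 12380 ± 3454 and 12437 ± 1710 (SD, n=4 each), with a log2 fold change of 0.01 (s.e. 0.255, 95% interval −0.49 to 0.51). The interval corresponds to a DOX level between 0.711 and 1.42 times that of DMSO. The estimate of Keap1 was so near 0 that its sign was negative with edgeR (−0.0011).

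Transcript levels of Nfe2l2 relative to Keap1 were compared as a ratio of TPM, with Keap1 taken as the mean of its 4 transcript rows. The ratio was 7.09, 8.05, 3.19 and 7.75 in DMSO 3, 5, 15 and 20, and 7.15, 6.09, 8.19 and 6.56 in DOX 9, 12, 19 and 21. By this measure Nfe2l2 exceeded Keap1 in all 8 libraries. With the 4 rows summed, it did so in every library except DMSO 15 (ratio 0.798). By either measure the lowest ratio was that of DMSO 15. It was also the library with the highest stromal and the lowest epithelial marker sum (3735 and 660 TPM), and the part of cell makeup in the ratio was not tested. The mean log2 ratio was 0.18 higher in DOX (exact two-sided permutation p=0.83 over 70 assignments, n=4 each; adjusted over 3 ratios, 0.857), where 0.0286 was the smallest p possible. Without DMSO 15 the difference was −0.13.

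Nqo1 and Hmox1, enzymes often read as reporters of NRF2 activity, differed in how much they varied. Nqo1 (Entrez 18104, chr8:107388225-107403205) encodes a quinone reductase that uses NAD(P)H. It had 2441, 9200, 1573 and 20189 normalised read counts in DMSO 3, 5, 15 and 20, and 3064, 6166, 36858 and 3439 in DOX 9, 12, 19 and 21. The highest library was in one group and the lowest in the other, but DOX 19 and DMSO 20 were the highest of their own groups, and DOX 19 exceeded DMSO 15 by 23.4-fold. Nqo1 had the widest range of the 9 members counted in every library. Its means were 8351 ± 8597 in DMSO and 12382 ± 16376 in DOX (SD, n=4 each), and the log2 fold change of 0.57 had an s.e. of 0.980 (95% interval −1.35 to 2.49, adjusted p=0.999 by DESeq2). Without DMSO 20 and DOX 19 the log2 fold change was −0.03. It was −0.97 without DOX 19 alone and 1.49 without DMSO 20 alone. These were also the libraries with the fewest genes detected, and both stood above the other 6 for 1475 of 17633 genes (8.36%) and for 2 of the 10 members, Nqo1 and Gclm. With low detection as a covariate, which marks DMSO 20 and DOX 19, the log2 fold change of Nqo1 was 0.17. Whether detection shaped the Nqo1 level within these libraries was not tested.

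Hmox1 (Entrez 15368, chr8:75093618-75100593) encodes haem oxygenase 1, the inducible enzyme that cleaves haem to biliverdin, iron and carbon monoxide. It had 3308, 2164, 6029 and 4922 normalised read counts in DMSO 3, 5, 15 and 20, and 5623, 3226, 5285 and 5149 in DOX 9, 12, 19 and 21. In DOX, 3 libraries lay close together and DOX 12 lay below them, while the DMSO libraries covered the whole range of both groups. The means were 4106 ± 1710 and 4821 ± 1082 (SD, n=4 each), with a log2 fold change of 0.23 (s.e. 0.379, 95% interval −0.51 to 0.98). It was 0.02 without DMSO 5 and 0.48 without DMSO 15. Hmox1 is also expressed by macrophages. The macrophage markers summed to 6.22 to 28.7 TPM in DMSO and 0.00680 to 10.9 TPM in DOX libraries, and of the 5 markers Adgre1 (listed as Emr1) and Csf1r were below 1 TPM in every library, whereas Cd68 reached 23.3 TPM (DMSO 20), Ptprc 22.3 TPM (DMSO 5) and C1qa 2.25 TPM (DMSO 15). The ratio of Hmox1 to Hmox2, the constitutive haem oxygenase, was 0.639, 0.538, 1.70 and 1.49 in DMSO and 1.24, 0.752, 2.44 and 1.47 in DOX libraries, in TPM with Hmox2 taken as the mean of its 2 transcript rows, whose counts were within a factor of 1.01 of each other in every library. Hmox1 exceeded Hmox2 in 5 of the 8 libraries, DMSO 15, DMSO 20, DOX 9, DOX 19 and DOX 21, and in DOX 19 alone (ratio 1.22) if the rows are summed. The mean log2 ratio was 0.48 higher in DOX (exact two-sided permutation p=0.400, n=4 each; adjusted over 3 ratios, 0.857), and between 0.20 (without DOX 19) and 0.77 (without DOX 12) higher when single libraries were left out.

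Glutathione synthesis begins with glutamate–cysteine ligase, whose catalytic subunit is encoded by Gclc and whose modifier subunit is encoded by Gclm. Gclc (Entrez 14629, chr9:77754535-77794489) had 5388, 13398, 2495 and 12445 normalised read counts in DMSO 3, 5, 15 and 20, and 4886, 7655, 7480 and 3639 in DOX 9, 12, 19 and 21. DMSO 5 and DMSO 20 were above every other library and DMSO 15 was below every other library, so that the DOX values lay inside the range of DMSO. The means were 8431 ± 5332 and 5915 ± 1976 (SD, n=4 each), with a log2 fold change of −0.51 (s.e. 0.553, 95% interval −1.60 to 0.57). It was −0.20 without DMSO 5 and −0.81 without DMSO 15. Gclm (Entrez 14630, chr3:122245487-122267215) had 4664, 4985, 2735 and 6448 normalised read counts in the DMSO and 3939, 3590, 6491 and 2688 in the DOX libraries. Its highest values, in DMSO 20 and DOX 19, were nearly equal, as were its lowest, in DMSO 15 and DOX 21. The means were 4708 ± 1528 and 4177 ± 1630 (SD, n=4 each), with a log2 fold change of −0.17 (s.e. 0.383, 95% interval −0.92 to 0.58). It was 0.015 without DMSO 20 and −0.46 without DOX 19.

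The balance of both subunits was compared as the TPM ratio of Gclc to Gclm. It was 0.698, 1.62, 0.552 and 1.17 in DMSO 3, 5, 15 and 20, and 0.750, 1.29, 0.697 and 0.819 in DOX 9, 12, 19 and 21. Catalytic subunit transcripts exceeded those of the modifier in DMSO 5, DMSO 20 and DOX 12. The mean log2 ratio differed by −0.10 between DOX and DMSO (exact two-sided permutation p=0.857, n=4 each; adjusted over 3 ratios, 0.857), and by 0.11 without DMSO 20 and DOX 19.

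Gsr and Gpx2 act on opposite sides of the glutathione cycle. Gsr (Entrez 14782, chr8:33653238-33698162) encodes glutathione reductase, which regenerates reduced glutathione with NADPH. It had 19130, 13429, 5124 and 7711 normalised read counts in DMSO 3, 5, 15 and 20, and 15045, 7513, 5946 and 4481 in DOX 9, 12, 19 and 21. DMSO 3, DOX 9 and DMSO 5 were the highest libraries, at up to 4.27 times the lowest, DOX 21. The means were 11348 ± 6241 and 8246 ± 4698 (SD, n=4 each), with a log2 fold change of −0.46 (s.e. 0.535, 95% interval −1.51 to 0.59). Without DMSO 3 it was −0.085, and without DOX 9 it was −0.93. Epithelial marker sums were also highest in DMSO 3, DMSO 5 and DOX 9 (2867, 2572 and 1816 TPM) and lowest in DMSO 15 and DOX 21 (660 and 843 TPM), the libraries with the least Gsr. The part of epithelial content in the Gsr level was not tested.

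Gpx2 (Entrez 14776, chr12:76792335-76795554), the epithelial glutathione peroxidase that removes peroxides with glutathione, was the least abundant member. It had 735, 1141, 42.1 and 0 normalised read counts in DMSO 3, 5, 15 and 20, and 195, 285, 802 and 207 in DOX 9, 12, 19 and 21. Both extremes were in DMSO, and the count of 0 in DMSO 20 allows a level of up to 3.84 normalised read counts (3 reads, counting error only). The means were 479.5 ± 555 and 372 ± 289 (SD, n=4 each), and the fitted log2 fold change of −0.37 (s.e. 1.41, 95% interval −3.14 to 2.41) left the direction unresolved. It was −1.45 without DMSO 20 and DOX 19 and 0.53 without DMSO 5. A processed copy, Gpx2-ps1, had 0 to 31 reads per library, and how reads shared between both were assigned was not stated, so the Gpx2 level is uncertain to that extent.

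The thioredoxin branch was represented by Txnrd1 and Srxn1. Txnrd1 (Entrez 50493, chr10:82833951-82897724) encodes the cytosolic selenoprotein thioredoxin reductase 1, which reduces thioredoxin with NADPH. It had 63355, 53112, 67789 and 80438 normalised read counts in DMSO 3, 5, 15 and 20, and 102079, 78955, 83697 and 63719 in DOX 9, 12, 19 and 21. DOX 9 and DOX 19 were above every DMSO library, whereas DOX 12 and DOX 21 lay within the DMSO range. The means were 66174 ± 11323 and 82112 ± 15806 (SD, n=4 each). The log2 fold change of 0.31 (s.e. 0.225, 95% interval −0.13 to 0.75) had the smallest unadjusted p among the members (0.166, adjusted p=0.999 by DESeq2). Without DOX 9 it was 0.19. The interval over all libraries corresponds to a DOX level between 0.914 and 1.68 times that of DMSO. Srxn1 (Entrez 76650, chr2:152105524-152111376) encodes sulfiredoxin, which repairs overoxidised peroxiredoxins, and was the member with several promoter matches. It had 3970, 2878, 5296 and 9190 normalised read counts in the DMSO and 7845, 4006, 5966 and 4739 in the DOX libraries. DMSO libraries were again both the highest and the lowest. The means were 5334 ± 2754 and 5639 ± 1678 (SD, n=4 each), with a log2 fold change of 0.08 (s.e. 0.423, 95% interval −0.75 to 0.91), and of 0.47 without DMSO 20 and DOX 19.

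**Figure D2:**
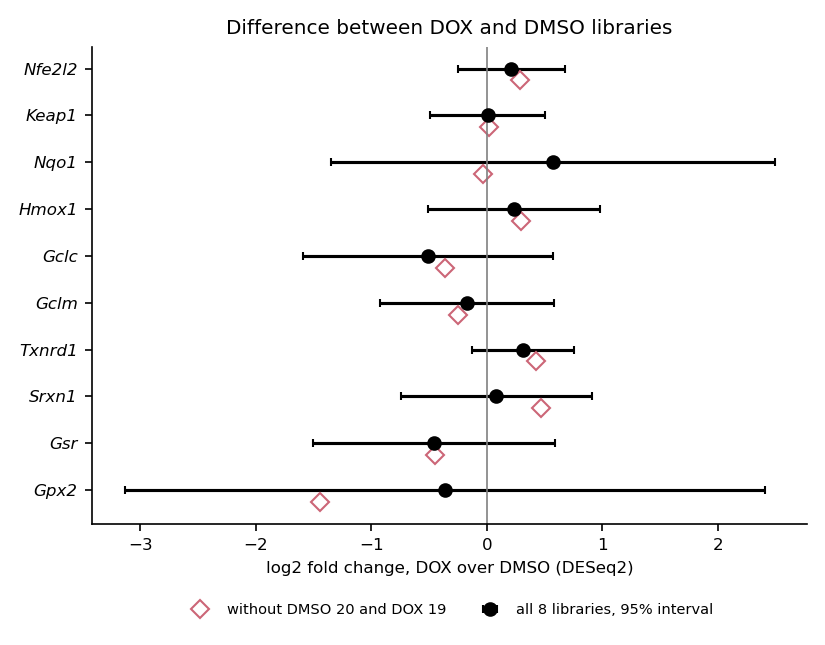
Log2 fold change of each NRF2 antioxidant gene, DOX over DMSO, fitted by DESeq2 (horizontal axis). Filled circles with bars are estimates over all 8 libraries with 95% intervals, and open diamonds are estimates without DMSO 20 and DOX 19; all 10 intervals include 0, the narrowest being that of Txnrd1 (−0.13 to 0.75) and the widest that of Gpx2 (−3.14 to 2.41).

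Levels of different members were compared in TPM, which takes transcript length into account. Keap1 and Txnrd1 each had 4 transcript rows whose counts were nearly the same within a library (highest over lowest at most 1.12 for Keap1 and 1.02 for Txnrd1), so their level was taken as the mean over rows and not the sum. By mean level over the 8 libraries the order was Nqo1 (165 ± 188 TPM), Nfe2l2 (140 ± 31.1), Txnrd1 (131 ± 31.0), Gsr (88.8 ± 45.8), Hmox1 (68.0 ± 18.5), Gclc (52.8 ± 32.6), Gclm (52.5 ± 18.8), Srxn1 (47.4 ± 19.0), Keap1 (21.2 ± 3.94) and Gpx2 (9.84 ± 9.88; SD, n=8 each). Only Srxn1 and Keap1 were neighbours in this order without overlap of their ranges, with 27.6 to 83.7 TPM for Srxn1 and 17.3 to 27.0 TPM for Keap1. Every other pair of neighbours overlapped. Nqo1 led by its mean alone: its median was 84.1 TPM, and it exceeded Nfe2l2 in only 3 of the 8 libraries. Its mean was 109 TPM without DOX 19 and 71.7 TPM without DMSO 20 and DOX 19, where Nfe2l2 had 133 TPM and Gsr 97.5 TPM. Nfe2l2, by contrast, stayed between 81.9 and 174 TPM. The order depends on averaging the rows. If they are summed, Keap1 spanned 69.2 to 108 TPM and overlapped Srxn1, and Txnrd1 had the highest mean (523 TPM).

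The members also differed in which library held their extremes. Nfe2l2, Keap1 and Txnrd1 were the steadiest, with the highest library 1.87, 1.90 and 1.92 times the lowest in normalised read counts. Gclm, Hmox1 and Srxn1 spanned 2.41-fold, 2.79-fold and 3.19-fold, followed by Gsr at 4.27-fold, Gclc at 5.37-fold and Nqo1 at 23.4-fold. DMSO 5 was the lowest library for 4 members (Keap1, Hmox1, Txnrd1 and Srxn1) and the highest for 2 (Gclc and Gpx2). DMSO 15 was the lowest for 3 (Nfe2l2, Nqo1 and Gclc) and the highest for 2 (Keap1 and Hmox1). No library was the highest or the lowest for all 10 members.

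**Figure D3:**
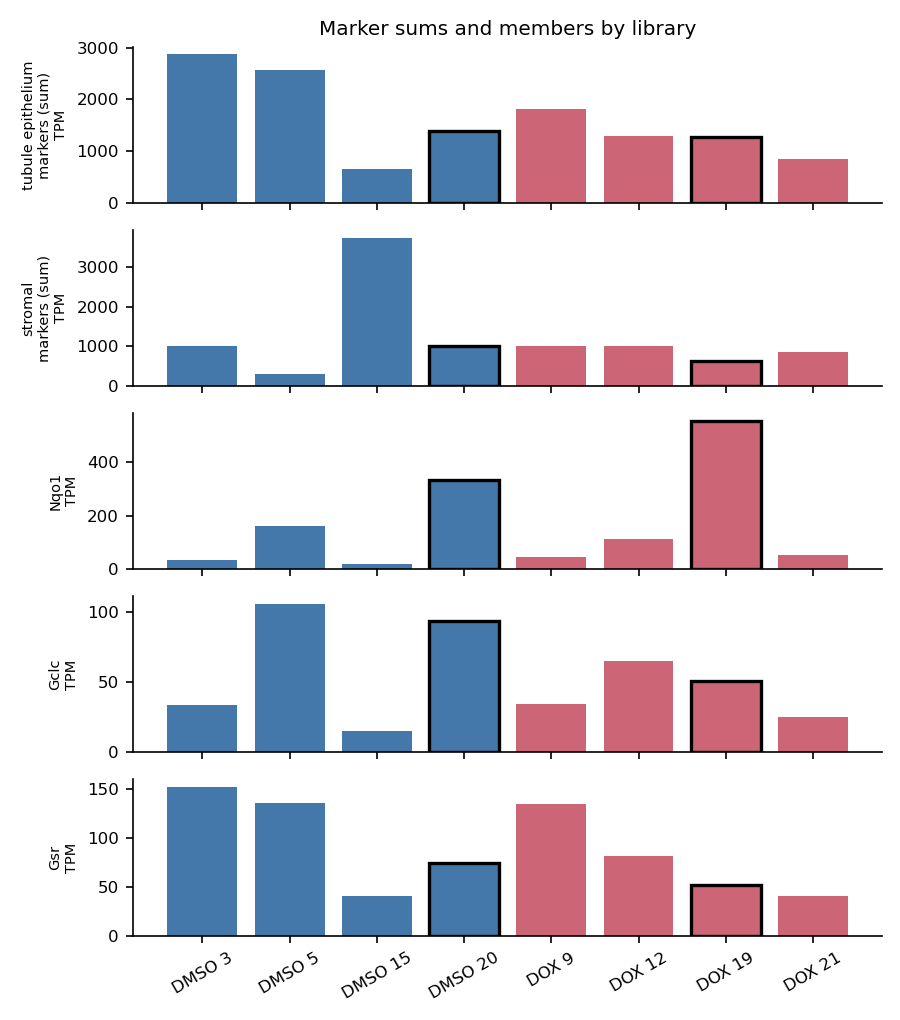
Summed TPM of 7 tubule epithelial and 7 stromal markers (upper panels) and TPM of Nqo1, Gclc and Gsr (lower panels) in each library, with DMSO in blue, DOX in red and a black outline around DMSO 20 and DOX 19; bars start at 0. Gsr is highest where the epithelial sum is highest (DMSO 3, DMSO 5 and DOX 9), whereas Nqo1 is highest in DMSO 20 and DOX 19, and stromal markers are highest in DMSO 15 (3735 TPM).

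The wider pathway was represented by 63 further genes in 7 lists, of which 62 had an adjusted p. None was called by DESeq2 or edgeR. An unadjusted p under 0.05 was found for 5 genes by DESeq2 and for 4 by edgeR, beside 4.67% of all genes by DESeq2 and 476 of 15562 by edgeR. By DESeq2, 26 were higher and 36 lower with DOX, and the median log2 fold change was −0.06, beside −0.07 over all genes tested. The groups did not overlap for 2 of the 63, Sqstm1 and Idh1, beside 2.71% of all genes.

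Among 8 regulators and partners of NRF2, 3 were higher and 5 lower with DOX, 0 were called, and the median log2 fold change was −0.16, or 0.19 without DMSO 20 and DOX 19. Sqstm1 encodes p62, the autophagy receptor that binds KEAP1. It had 64459, 38702, 64101 and 67532 normalised read counts in DMSO 3, 5, 15 and 20, and 182316, 76641, 106490 and 80342 in DOX 9, 12, 19 and 21. Every DOX library lay above every DMSO library, with DOX 9 far above the rest. The log2 fold change was 0.92 (s.e. 0.363), with an unadjusted p of 0.0109 that did not withstand adjustment over all genes (adjusted p=0.664 by DESeq2). Nfe2l1, which encodes the related factor NRF1 of the proteasome response, averaged 56447 ± 14027 and 88092 ± 20743 normalised read counts in DMSO and DOX (SD, n=4 each; log2 fold change 0.64, adjusted p=0.781 by DESeq2). Rbx1, the RING subunit of the ligase that KEAP1 serves, differed by −0.24 (s.e. 0.224).

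Of 11 further genes of the glutathione system, 4 were higher and 7 lower with DOX, 0 were called, and the median log2 fold change was −0.05. Gss, glutathione synthetase, differed by 0.43 on the log2 scale (unadjusted p=0.0488, adjusted p=0.942 by DESeq2), and Glrx, glutaredoxin, by −0.73 (unadjusted p=0.0250, adjusted p=0.830 by DESeq2). The most abundant genes of the list were the peroxidases Gpx1 (702 TPM, 1 transcript row) and Gpx4 (525 TPM as the mean of 3 nearly equal rows), with log2 fold changes of −0.36 (s.e. 0.314) and −0.09 (s.e. 0.321). Of 11 genes of the thioredoxin and peroxiredoxin system, 4 were higher and 7 lower, 0 were called, and the median was −0.20, or between −0.31 (without DOX 21) and −0.056 (without DMSO 15) when single libraries were left out. The peroxiredoxin Prdx1, substrate of sulfiredoxin and present at 2649 TPM, differed by −0.20 (s.e. 0.223) and Prdx2 by −0.27 (s.e. 0.304). Prdx4, the peroxiredoxin of the endoplasmic reticulum, differed by −0.73 (s.e. 0.391) and Txn2, mitochondrial thioredoxin, by 0.50 (s.e. 0.315).

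Superoxide dismutases and catalase, which remove superoxide and hydrogen peroxide, comprised 4 genes, of which 3 were higher and 1 lower with DOX, 0 were called, and the median log2 fold change was 0.25, or 0.12 without DOX 19. Sod1 differed by −0.14 (s.e. 0.168), Sod2 by 0.33 (s.e. 0.210) and Cat by 0.16 (s.e. 0.337). Of 6 NADPH-forming enzymes, 1 was higher and 5 lower, 0 were called, and the median was −0.17, or −0.27 without DOX 9. Idh1, cytosolic isocitrate dehydrogenase, had 28084, 21388, 17895 and 25460 normalised read counts in DMSO 3, 5, 15 and 20, and 14008, 17260, 15838 and 16511 in DOX 9, 12, 19 and 21. Every DOX library lay below every DMSO library, though DOX 12 and DMSO 15 were close. The log2 fold change was −0.55 (s.e. 0.198), with an unadjusted p of 0.00584 and an adjusted p of 0.520 by DESeq2. Without DMSO 15, the DMSO library with the least Idh1, it was −0.65 and was called (adjusted p=0.0320 by DESeq2). No other alternative called Idh1, and without DMSO 15 the calls over the whole table rose from 25 to 75. Pgd and Taldo1, of the pentose phosphate pathway, differed by −0.21 (s.e. 0.192) and 0.23 (s.e. 0.301).

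Of 16 detoxification enzymes and exporters, 15 had an adjusted p, 7 were higher and 8 lower with DOX, 0 were called, and the median log2 fold change was −0.02, or −0.27 without DMSO 20 and DOX 19. The glutathione transferases Gstp1 and Mgst1 differed by 0.46 (s.e. 0.309) and −0.46 (s.e. 0.478), and Ephx1, microsomal epoxide hydrolase, by 0.33 (s.e. 0.255). Of 7 genes of haem and iron handling, 4 were higher and 3 lower, 0 were called, and the median was 0.18, or 0.027 without DMSO 20 and DOX 19. The ferritin subunits Fth1 (2609 TPM as the mean of 2 nearly equal transcript rows) and Ftl1 (3524 TPM, 1 row), which store iron, differed by 0.37 (s.e. 0.337) and 0.18 (s.e. 0.355), and Blvra, biliverdin reductase, by −0.29 (s.e. 0.232).

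**Figure D4:**
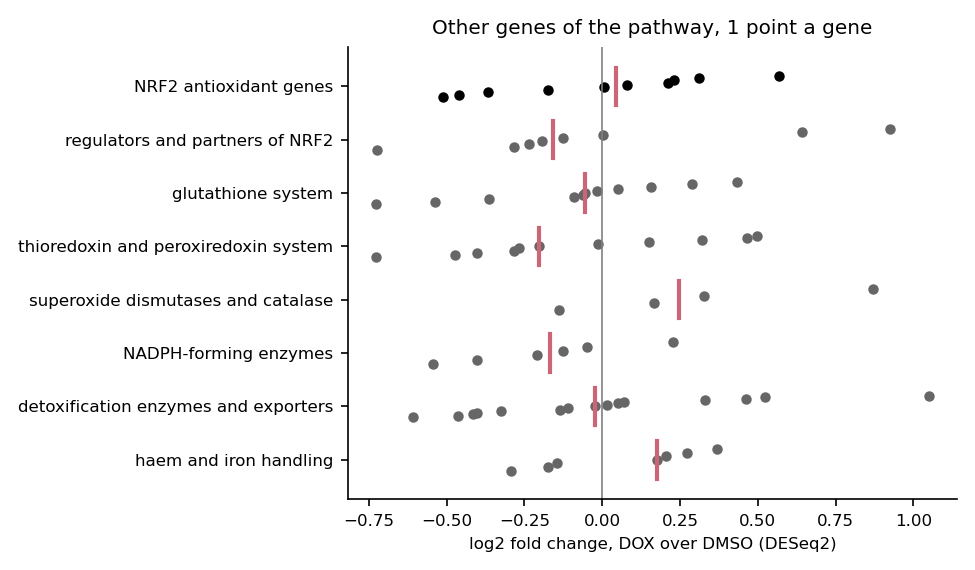
Log2 fold change of single genes, DOX over DMSO, fitted by DESeq2 (horizontal axis), for the 10 NRF2 antioxidant genes (black) and 7 lists of other genes of the pathway (grey), 1 point a gene, with a red bar at the median of each row. Medians lie between −0.20 (thioredoxin and peroxiredoxin system) and 0.25 (superoxide dismutases and catalase), and no point was called.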

How the data were processed

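Poly-A selected SMART-Seq v4 libraries were sequenced by the authors. The submitters' processing notes name STAR, featureCounts and DESeq2, without versions, and mm10; strand and multi-mapping settings are not given in the sources used here. The authors deposited a read count, an FPKM and a TPM (FPKM rescaled to a fixed sum) per RefSeq transcript (33068 rows). The deposited count was summed by symbol for the tests, TPM described levels, and FPKM was not used. The rows of Keap1, Txnrd1, Hmox2, Fth1 and Gpx4 held nearly equal counts, so reads shared by isoforms appear to have been counted for each, and sums may overstate reads. DESeq2 1.42.0 (R 4.3.3) gave the main comparison of DOX and DMSO, a Wald test over all genes, with independent filtering at 0.1 and Benjamini-Hochberg adjustment; edgeR 4.0.16 (quasi-likelihood) stands beside it. Intervals are 95% Wald intervals of the DESeq2 estimate. The members and lists were chosen with earlier results of these data known. Genes described outside the 10 members were Pkd2, Hmox2, Gpx2-ps1 and markers of cell types. Single values of macrophage and urothelial markers were chosen after their values were seen. In each list, the 2 highest by TPM per transcript and the 2 with the smallest unadjusted p were described too. Alternatives were TMM size factors, a low-count filter (10 reads in 4 libraries), no Cook's filter, 1 transcript per gene, low detection as a covariate, and leaving out libraries. Coordinates are RefSeq on GRCm38.p6.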

Additional observations from a re-analysis of the deposited data

Results flagged for a closer look

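In 26 groups of 4 values (the members and the ratios, in DMSO and in DOX), 2 held a library whose gap to its neighbour, divided by the range of the group, exceeded Dixon's 95% critical value; chance gives about 1.3. For Hmox1, DOX 12 had a log2(normalised count + 1) of 11.66, below the 12.33 to 12.46 of the other DOX libraries (gap over range 0.841). The other was the ratio of Nfe2l2 to Keap1, here with the 4 rows of Keap1 summed. DMSO 15 had a log2 TPM ratio of −0.33, below the 0.83 to 1.01 of the other DMSO libraries (gap over range 0.863).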

How the results depend on the processing

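No member was called under any of the 15 alternatives: the smallest adjusted p was 0.609 and the smallest unadjusted p 0.0607, and 5 of 150 member fits could not be called because they had no adjusted p. Of these, 4 had no p after the Cook's filter (Nqo1 without DMSO 5 or DMSO 20, Gpx2 without DMSO 3 or DMSO 5), and Gpx2 with the low-count filter was left out by independent filtering (unadjusted p=0.795 by DESeq2). The sign of an estimate was less stable. It turned for Keap1 with edgeR (−0.0011), for Nqo1 without DMSO 20 and DOX 19 (−0.031) and for the ratio of Gclc to Gclm without them (0.11). Leaving out each library in turn gave ranges that crossed 0 of −0.11 to 0.21 for Keap1, −0.97 to 1.49 for Nqo1, −0.46 to 0.015 for Gclm, −0.12 to 0.47 for Srxn1, −1.06 to 0.53 for Gpx2, −0.35 to 0.17 for Gclc to Gclm and −0.13 to 0.31 for Nfe2l2 to Keap1. With 1 transcript a gene, mean TPM was 17.5 for Keap1 and 133 for Txnrd1, in place of 84.9 and 523 summed over 4 rows. The list medians became 0.027 (haem and iron handling) and 0.19 (regulators and partners) without DMSO 20 and DOX 19, and the latter ranged from −0.27 to 0.18 without single libraries. The medians of the glutathione and detoxification lists also changed sign, to 0.037 and 0.014 with low detection as a covariate, and ranged from −0.15 to 0.051 and from −0.18 to 0.072 without single libraries. The NADPH list held 0 to 1 calls, the 1 being Idh1 without DMSO 15. Among all genes, 25 were called, against 48 without the Cook's filter, 0 with edgeR, 41 with low detection as a covariate, 51 without DMSO 20 and DOX 19, and from 14 (without DMSO 3) to 75 (without DMSO 15) without single libraries. The causes were not tested. No paired analysis was possible because the groups share no library number. With 4 libraries a group, the intervals of Nqo1 and Gpx2 covered changes of several fold in either direction.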
